A study of Homo sapiens with 6 samples.

Results

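Small nucleolar RNA (snoRNA) host genes are transcription units that carry snoRNAs in their introns, and 10 noncoding ones were followed here through depletion of the nucleolar RNA helicase DDX18. The members are the genes listed in the deposited table as SNHG1, SNHG3, SNHG4, SNHG5, SNHG6, SNHG7, SNHG8, SNHG12, SNHG15 and GAS5, chosen by name. All 10 were found, of 17929 genes in the table, and all 10 passed the filter on low values. The study asked how DDX18 bears on the stem cell state of human embryonic stem cells. Its 6 RNA sequencing libraries come from 2 established lines, H9 and HES2, both kept on irradiated mouse embryonic fibroblasts in medium with bFGF and Knockout serum. Cells of each line were infected with virus carrying shDDX18#1 or shDDX18#3, which are short hairpins against DDX18, or shLuc, the control hairpin, and were collected on day 4. Each line gave 1 library per hairpin, so there are 4 knockdown and 2 shLuc libraries, with H9 as replicate 1 and HES2 as replicate 2. The labels do not say that libraries came from separate cultures, so p-values cover the spread among these samples and no more.

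Most snoRNAs guide the chemical modification of ribosomal RNA. Those of the box C/D class direct ribose methylation by the enzyme fibrillarin, and those of the box H/ACA class direct the conversion of uridine to pseudouridine by dyskerin. In human cells they are mostly cut out of introns: the host transcript is spliced, the intron lariat is debranched and trimmed, and the snoRNA bound by its proteins survives. The spliced host RNA of a noncoding host gene is often short-lived and subject to nonsense-mediated decay. Many host genes have a transcription start in a run of pyrimidines, the terminal oligopyrimidine (TOP) start that ribosomal protein genes also use. DDX18 is a DEAD-box helicase of the nucleolus with a role in assembly of the large ribosomal subunit. The TruSeq RNA kit used here commonly selects polyadenylated RNA and is not made for RNAs as short as snoRNAs. Its libraries thus read host RNA and hardly the snoRNA. How much of the host RNA read was spliced was not measured.

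In the RefSeq annotation, 34 snoRNAs lie within the 10 genes, 22 of box C/D and 12 of box H/ACA. GAS5 holds 11, SNHG1 holds 8 and SNHG12 holds 4. SNHG3, SNHG4, SNHG5 and SNHG7 hold 2 each, and SNHG6, SNHG8 and SNHG15 hold 1 each. Of these 34 snoRNAs, 1 has a row in the deposited table, SNORA73B of SNHG3, with 1 to 8 reads per library, so what follows describes host transcripts. These snoRNAs, 1 or 2 from each of 3 hosts that fell in the knockdown, show the short conserved boxes that set the classes apart. Sequences are the reference transcripts of the GENCODE annotation, 5′ to 3′ with T for U. Capitals mark TGATGA (box C) and CTGA (box D), or the ACA box near the 3′ end.
SNORD25 of SNHG1: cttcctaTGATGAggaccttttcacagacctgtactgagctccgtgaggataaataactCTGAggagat
SNORD27 of SNHG1: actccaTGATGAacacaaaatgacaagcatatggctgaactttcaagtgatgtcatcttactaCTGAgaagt
SNORD50B of SNHG5: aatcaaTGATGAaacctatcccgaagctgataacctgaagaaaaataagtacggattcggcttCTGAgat
SNORA73B of SNHG3: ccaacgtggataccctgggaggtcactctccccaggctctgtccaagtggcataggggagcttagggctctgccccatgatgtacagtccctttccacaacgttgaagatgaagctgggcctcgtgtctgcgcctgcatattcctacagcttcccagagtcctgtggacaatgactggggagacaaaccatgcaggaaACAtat
The box C/D RNAs with a sequence were 69 to 126 bases long and the box H/ACA RNAs 130 to 206 bases long. The exact letters of both box C and box D were found in 4 of 8 box C/D sequences. An ACA 3 bases from the 3′ end was found in 7 of 11 box H/ACA sequences.

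The annotated start of the host transcript also differs among members. RefSeq promoter windows on GRCh38.p14 were matched by symbol for 8 members, and 3 of the 8 (37.5%) begin with C followed by at least 4 further pyrimidines, a TOP-like start, namely SNHG4, SNHG5 and SNHG12. The same holds for 4.07% of all 35116 RefSeq promoters and for 10 of 20 ribosomal protein host genes. The letters TATAA, searched on both strands 45 to 15 bases before the start, were found in 4 of the 8, which are SNHG5, SNHG7, SNHG8 and SNHG12, and in 5.04% of all promoters. The lines give 40 bases before the start and 40 from it, for the 3 genes with a TOP-like start and for SNHG1 and SNHG7. Capitals mark the pyrimidine run at the start and TATAA.
SNHG4 promoter (chr5:139274061-139274140, plus strand): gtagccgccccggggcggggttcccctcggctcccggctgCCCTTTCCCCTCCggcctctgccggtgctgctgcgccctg
SNHG12 promoter (chr1:28581834-28581913, minus strand): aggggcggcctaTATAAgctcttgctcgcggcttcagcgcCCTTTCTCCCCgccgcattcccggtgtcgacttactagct
SNHG5 promoter (chr6:85678694-85678773, minus strand): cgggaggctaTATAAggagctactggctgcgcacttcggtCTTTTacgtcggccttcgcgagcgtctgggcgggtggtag
SNHG7 promoter (chr9:136728145-136728224, minus strand): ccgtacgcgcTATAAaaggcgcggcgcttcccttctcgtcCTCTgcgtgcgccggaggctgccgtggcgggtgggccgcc
SNHG1 promoter (chr11:62855846-62855925, minus strand): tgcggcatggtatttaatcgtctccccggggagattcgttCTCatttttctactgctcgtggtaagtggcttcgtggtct
The run is 13 bases long in SNHG4, 11 in SNHG12 and 5 in SNHG5, and it is 4 in SNHG7 and 3 in SNHG1. A match to these letters describes the sequence and does not mark a site in use. The run was read only from the exact first base of the annotated start. GENCODE lists 25 transcripts for SNHG1 and 29 for GAS5. Lack of a match therefore does not show that a gene lacks a TOP start.

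Levels are the deposited normalized signal in CPM, read counts scaled to a common effective library size. The table holds 2668179 to 4271741 reads per library, so that 1 read is worth 0.224 to 0.408 CPM. DDX18 stood at 19.2 and 47.3 CPM in H9 shDDX18#1 and shDDX18#3 and at 39.3 and 60.4 CPM in the same HES2 arms, against 153 CPM in H9 shLuc and 161 CPM in HES2 shLuc. The log2 fold change of DDX18 was -2.0 (SE 0.35, limma adjusted p = 0.0109), and shDDX18#1 left less DDX18 transcript than shDDX18#3 in both lines. None of the 10 embryonic stem cell markers examined was at 0 in any library, and their summed share of reads was 0.403% to 0.549% in knockdown libraries and 0.672% to 0.752% in shLuc libraries. Of these 10 markers 7 were called lower in the knockdown, with a median log2 fold change of -1.28. Among them were DNMT3B at -1.95 (limma adjusted p = 0.0029) and SOX2 at -1.82 (limma adjusted p = 0.0154). In all, 9 of the 10 had a negative log2 fold change and the highest value was 0.65. By limma 0 were called higher, but 1 had a positive value with an unadjusted p under 0.05, and DESeq2 called 1 higher. The 12 fibroblast or feeder markers held 3.67% and 1.34% of reads in H9 shDDX18#1 and shDDX18#3 and 0.512% and 0.40% in the same HES2 arms, against 0.283% in H9 shLuc and 0.0724% in HES2 shLuc. Of these 12, DCN was at 0 in HES2 shDDX18#3 and HES2 shLuc, and no marker was at 0 in the other libraries. In the knockdown 8 of 12 were called higher and 0 lower. A negative log2 fold change was found for 2 of the 12, the lowest at -0.50. In bulk RNA, fewer cells of a type and less RNA per cell cannot be told apart, and the part of these markers in the results below was not tested.

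In the DDX18 knockdown all 10 host genes had a negative log2 fold change, and 5 fell by the test: SNHG1, SNHG3, SNHG4, SNHG5 and SNHG6. None was called higher. Of all 17768 genes tested, 6.26% were called lower and 9.6% higher, and of the 2696 long noncoding genes among them 2.56% were called lower. The median log2 fold change was -0.80 over the 10 genes and -0.02 over all genes tested, while long noncoding genes had a median of 0.00. All fold changes are on the log2(CPM + 1) scale, with the call at a limma adjusted p under 0.05. Without the H9 shLuc library, or without the HES2 one, the shLuc arm rests on a lone library. The calls were then lost, for the host genes as for most of the table, while all 10 log2 fold changes stayed negative. Without HES2 shDDX18#1, 2 of the 10 were called lower (SNHG1 and SNHG4), against 243 of all 17492 genes tested. The same 5 were called lower without H9 shDDX18#1, against 1098 of all 17367 genes tested.

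**Figure D1:**
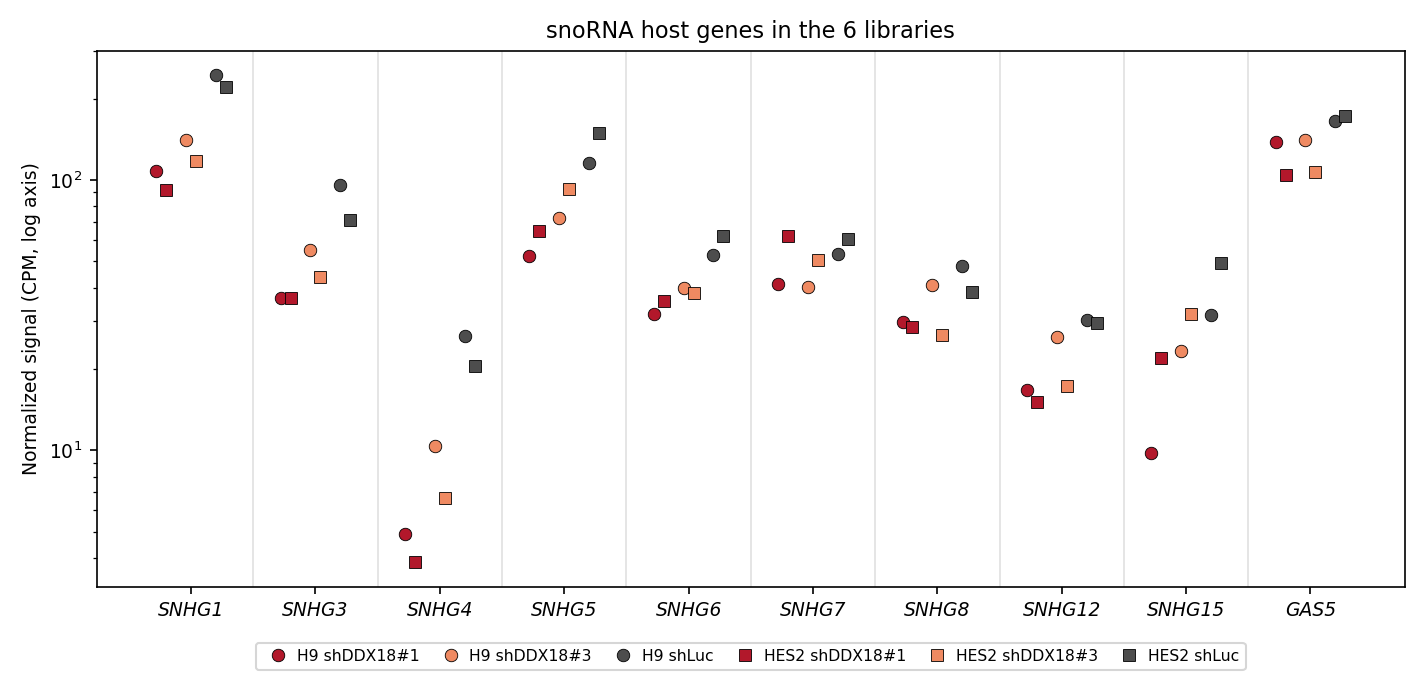
Normalized signal of the 10 host genes (vertical log axis, CPM) in each of the 6 libraries, grouped by gene along the horizontal axis, with H9 as circles and HES2 as squares. Points run from shDDX18#1 through shDDX18#3 to shLuc within a gene: all 4 knockdown points lie below both shLuc points for 7 genes, and the groups overlap for SNHG7, SNHG8 and SNHG15.

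Of the hosts of box C/D snoRNAs, SNHG1 (ENSG00000255717, chromosome 11) carries a run of them, most with a known ribosomal RNA methylation target. Its level was 108 and 141 CPM in H9 shDDX18#1 and shDDX18#3 and 91.7 and 118 CPM in the same HES2 arms, against 244 CPM in H9 shLuc and 222 CPM in HES2 shLuc. The highest knockdown library thus lay well below the lower shLuc library. The mean was 115 ± 20.4 CPM in the knockdown (SD, n = 4) and 233 ± 16.0 CPM in shLuc (SD, n = 2), or -1.03 as a log2 fold change (SE 0.17, limma adjusted p = 0.00916). These values rest on 265 to 434 reads in knockdown libraries and 882 and 991 reads in shLuc libraries.

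SNHG5 (ENSG00000203875, chromosome 6) hosts SNORD50A and SNORD50B, a pair of related box C/D snoRNAs. It gave 52.3 and 72.3 CPM in H9 shDDX18#1 and shDDX18#3 and 65.0 and 93.0 CPM in the HES2 arms, against 116 CPM in H9 shLuc and 150 CPM in HES2 shLuc. The groups did not overlap, and HES2 lay above H9 in every arm. SNHG5 averaged 70.6 ± 17.1 CPM in the knockdown (SD, n = 4) and 133 ± 23.9 CPM in shLuc (SD, n = 2), and its log2 fold change was -0.92 with SE 0.20 (limma adjusted p = 0.0211).

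SNHG6 (ENSG00000245910, chromosome 8) hosts SNORD87 alone. Its signal was 31.9 and 39.9 CPM in H9 shDDX18#1 and shDDX18#3 and 35.7 and 38.1 CPM in the HES2 arms, against 52.6 CPM in H9 shLuc and 62.1 CPM in HES2 shLuc. The 4 knockdown libraries lay close together, at 36.4 ± 3.48 CPM (SD, n = 4), below 57.4 ± 6.75 CPM in shLuc (SD, n = 2). The log2 fold change was -0.64 with SE 0.17 (limma adjusted p = 0.0387), the smallest of the 5 that passed. DESeq2 on the recovered reads did not call SNHG6, while edgeR did.

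GAS5 (ENSG00000234741, chromosome 1), first known as a growth arrest transcript, holds 10 box C/D snoRNAs and 1 of box H/ACA. It was at 138 and 141 CPM in H9 shDDX18#1 and shDDX18#3 and at 104 and 107 CPM in the HES2 arms, against 166 CPM in H9 shLuc and 173 CPM in HES2 shLuc. All 4 knockdown values lay below both shLuc values, and the HES2 knockdown libraries lay further down than those of H9. Its log2 fold change was -0.48 with SE 0.15 and did not pass (limma adjusted p = 0.0655). It was -0.25 without the HES2 shLuc library and -0.71 without the H9 shLuc library.

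SNHG12 (ENSG00000197989, chromosome 1) holds snoRNAs of both classes, SNORA16A, SNORA44, SNORA61 and SNORD99. Its values were 16.7 and 26.3 CPM in H9 shDDX18#1 and shDDX18#3 and 15.1 and 17.3 CPM in the HES2 arms, against 30.5 CPM in H9 shLuc and 29.5 CPM in HES2 shLuc. The groups did not overlap, but H9 shDDX18#3 came close to its shLuc library. SNHG12 averaged 18.8 ± 5.02 CPM in the knockdown (SD, n = 4) and 30.0 ± 0.668 CPM in shLuc (SD, n = 2), or -0.67 as a log2 fold change (SE 0.23, limma adjusted p = 0.0867).

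Among hosts of box H/ACA snoRNAs, SNHG4 (ENSG00000281398, chromosome 5), which hosts 2 snoRNAs of that class, had the most negative log2 fold change of the 10. It stood at 4.90 and 10.4 CPM in H9 shDDX18#1 and shDDX18#3 and at 3.86 and 6.68 CPM in the HES2 arms, against 26.6 CPM in H9 shLuc and 20.6 CPM in HES2 shLuc. Every knockdown library held less than its shLuc library by a wide margin, and shDDX18#1 was the lower hairpin in both lines. The mean was 6.45 ± 2.86 CPM in the knockdown (SD, n = 4) and 23.6 ± 4.25 CPM in shLuc (SD, n = 2), and the log2 fold change was -1.79 (SE 0.34, limma adjusted p = 0.0151). Read numbers were small, 12 to 32 in knockdown libraries and 92 and 96 in shLuc libraries. What remained of SNHG4 was 18.4% of its own line's shLuc in H9 shDDX18#1, with a 95% counting interval of 9.2% to 33.7%, and 18.8% in HES2 shDDX18#1, with an interval of 9.4% to 34.4%. Such intervals cover counting error only.

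SNHG3 (ENSG00000242125, chromosome 1) hosts SNORA73A and SNORA73B, which take part in early cleavage of the ribosomal RNA precursor. It gave 36.8 and 55.1 CPM in H9 shDDX18#1 and shDDX18#3 and 36.7 and 43.7 CPM in the HES2 arms, against 95.8 CPM in H9 shLuc and 71.1 CPM in HES2 shLuc. Both lines reached nearly the same level with shDDX18#1 although their shLuc levels differed. SNHG3 averaged 43.1 ± 8.68 CPM in the knockdown (SD, n = 4) and 83.4 ± 17.5 CPM in shLuc (SD, n = 2), and its log2 fold change was -0.94 with SE 0.20 (limma adjusted p = 0.0205).

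SNHG15 (ENSG00000232956, chromosome 7), host of SNORA9, had the same log2 fold change to 2 decimals, -0.94, but with SE 0.33 it did not pass (limma adjusted p = 0.0854). It was at 9.80 and 23.3 CPM in H9 shDDX18#1 and shDDX18#3 and at 21.9 and 32.0 CPM in the HES2 arms, against 31.6 CPM in H9 shLuc and 49.4 CPM in HES2 shLuc. Each knockdown library lay below its own line's shLuc, and HES2 was the higher line in every arm. The groups overlapped, with HES2 shDDX18#3 above H9 shLuc.

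SNHG8 (ENSG00000269893, chromosome 4), host of SNORA24, had 29.8 and 40.8 CPM in H9 shDDX18#1 and shDDX18#3 and 28.6 and 26.7 CPM in the HES2 arms, against 48.2 CPM in H9 shLuc and 38.5 CPM in HES2 shLuc. Its log2 fold change was -0.46 with SE 0.18 (limma adjusted p = 0.126), and the groups overlapped. SNHG7 (ENSG00000233016, chromosome 9), host of SNORA17A and SNORA17B, had the log2 fold change nearest to 0. It had 41.2 and 40.2 CPM in H9 shDDX18#1 and shDDX18#3 and 62.1 and 50.4 CPM in the HES2 arms, against 53.2 CPM in H9 shLuc and 60.4 CPM in HES2 shLuc. The HES2 shDDX18#1 library lay above its own shLuc, the one such case among the 40 gene and library pairs. The log2 fold change of SNHG7 was -0.24 with SE 0.16 (limma adjusted p = 0.337).

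**Figure D2:**
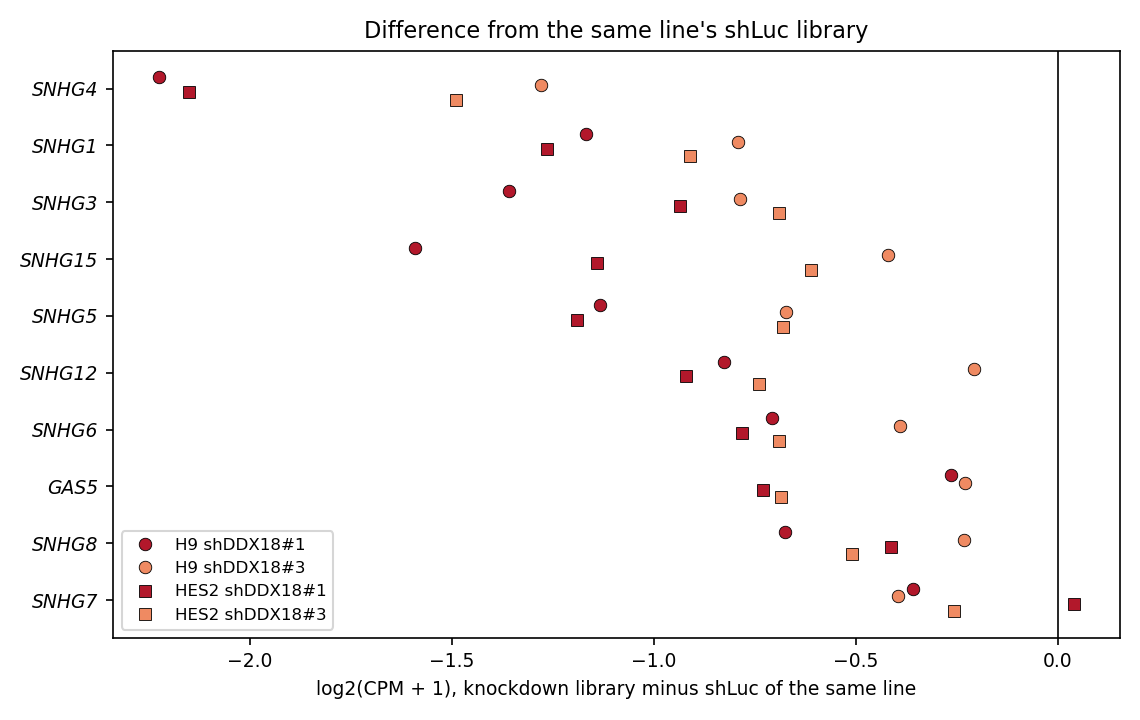
Each host gene's log2(CPM + 1) in a knockdown library minus that in the same line's shLuc (horizontal axis), 1 point per knockdown library, genes down the page in order of mean difference. Of 40 points, 39 lie left of 0, SNHG4 lies furthest left and the point right of 0 is SNHG7 in HES2 shDDX18#1.

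Taken library by library, the host genes below their own line's shLuc numbered 10 of 10 in H9 shDDX18#1, H9 shDDX18#3 and HES2 shDDX18#3, and 9 of 10 in HES2 shDDX18#1. The median of the 10 log2 differences was -0.98 in H9 shDDX18#1, -0.41 in H9 shDDX18#3, -0.93 in HES2 shDDX18#1 and -0.69 in HES2 shDDX18#3, and the medians of all genes tested lay between -0.03 and 0.00. In all, 7 of the 10 had every knockdown library below both shLuc libraries, a pattern that 20.9% of all genes tested showed. A knockdown level below the own line's shLuc in all 4 libraries was found for 9 of the 10 and for 27.9% of all genes tested. The median level remaining was 50.1% and 74.8% of shLuc in H9 shDDX18#1 and shDDX18#3, and 51.4% and 61.7% in the same HES2 arms. In H9 shDDX18#3, the 95% counting interval of the remaining level reached 100% for SNHG8, SNHG12 and SNHG15, and in HES2 it did so for SNHG7 with both hairpins.

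Together the 10 genes held 0.0431% and 0.0573% of reads in H9 shDDX18#1 and shDDX18#3 and 0.0487% and 0.0564% in the HES2 arms, against 0.0855% in H9 shLuc and 0.0917% in HES2 shLuc. The mean knockdown share was 58.0% of the mean shLuc share, and 60.0% with 16 other noncoding host genes added. The second value leans on SNHG14, which averaged 892 CPM in shLuc and 482 CPM in the knockdown. Of the 16, 14 had a negative log2 fold change, and the highest value was 0.82. The 10 genes together held 864 CPM in H9 shLuc and 876 CPM in HES2 shLuc. The makeup of this sum over the 10 also differed between arms. SNHG1 made up 19.7% to 23.8% of the summed CPM in knockdown libraries and 25.3% to 28.3% in shLuc libraries. GAS5, which had a smaller log2 fold change, made up 20.1% to 29.3% in knockdown libraries and 19.2% to 19.8% in shLuc libraries.

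The hairpins were compared with shLuc separately, with the same 2 shLuc libraries in both comparisons. With shDDX18#1, 8 of the 10 genes were called lower, against 13.4% of all genes tested. Their log2 fold changes lay between -2.19 for SNHG4 and -0.50 for GAS5, with adjusted p from limma of 0.000569 for SNHG1 to 0.0497 for GAS5. SNHG8 at -0.54 (limma adjusted p = 0.0738) and SNHG7 at -0.16 (limma adjusted p = 0.530) did not pass. SNHG15, at -1.37 with SE 0.23 (limma adjusted p = 0.00336), SNHG12, at -0.87 with SE 0.23 (limma adjusted p = 0.0232), and GAS5 passed with shDDX18#1 and not in the comparison over both hairpins. The call of GAS5 was held in 4 of 18 alternatives and lost under the other scalings, other pseudocounts and edgeR. That of SNHG12 was held in 10 of 18 and that of SNHG6 in 12 of 18, and DESeq2 called neither. SNHG1, SNHG3, SNHG4 and SNHG5 were called under every alternative run.

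With shDDX18#3, 4 genes were called lower, against 3.69% of all genes tested. They were SNHG1 at -0.85 (limma adjusted p = 0.00653), SNHG3 at -0.74 (limma adjusted p = 0.0312), SNHG4 at -1.38 (limma adjusted p = 0.0181) and SNHG5 at -0.68 (limma adjusted p = 0.0212). The other 6 had log2 fold changes of -0.54 to -0.33, all negative. Without H9 shDDX18#3 or without HES2 shDDX18#3, this arm rests on a lone library. The calls were then lost, for the host genes as for nearly the whole table. DESeq2 called SNHG1 alone, and it called 319 of all 17768 genes tested lower.

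**Figure D3:**
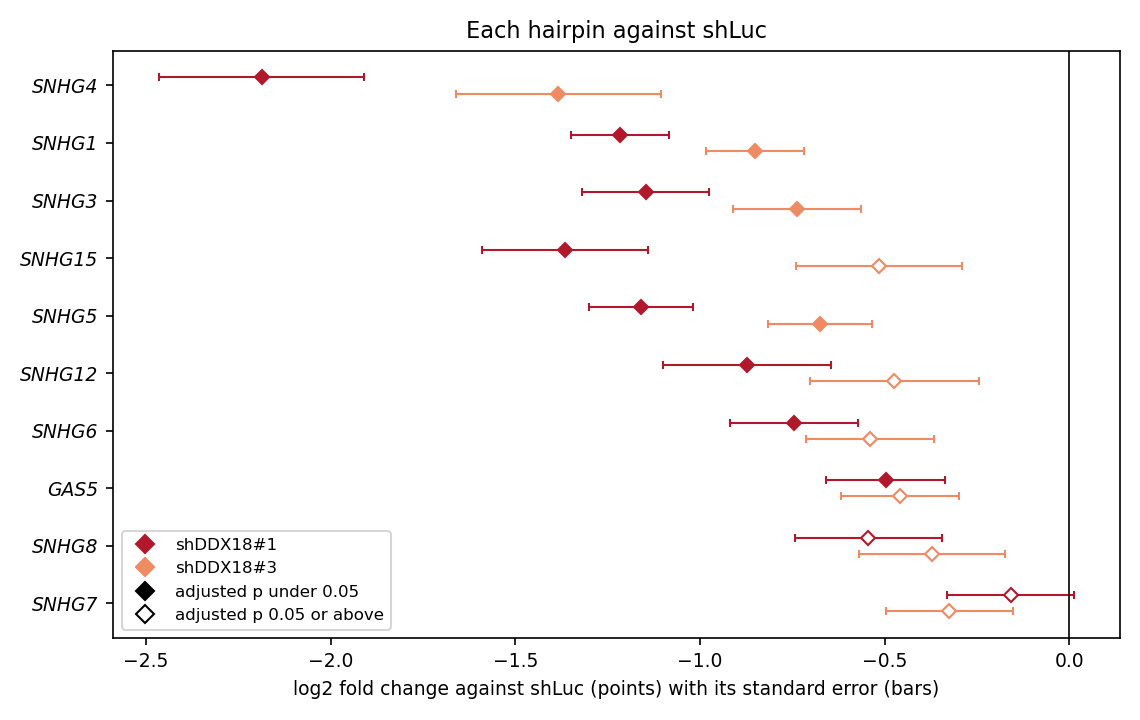
Log2 fold change of each host gene against shLuc (horizontal axis, points) with its standard error (bars), for shDDX18#1 above shDDX18#3 within a gene, filled where the limma adjusted p is under 0.05. The shDDX18#1 point lies left of the shDDX18#3 point for 9 genes, and SNHG7 is the exception.

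In the direct comparison of the hairpins, 9 of the 10 genes were lower with shDDX18#1 than with shDDX18#3, with a median log2 difference of -0.38 against -0.02 over all genes tested. By limma 0 of the 10 passed, as did 0% of all genes tested. An unadjusted p under 0.05 was found for 5 of the 10 and for 2536 of all 17768 genes tested. edgeR and DESeq2 also called 0 of the 10. The furthest was SNHG15, at -0.85 with SE 0.23 (limma adjusted p = 0.172), followed by SNHG4, at -0.80 with SE 0.28 (limma adjusted p = 0.248). GAS5 was nearly level between the hairpins, with a difference of -0.04 and SE 0.16. In both lines 8 of the 10 were lower with shDDX18#1, a pattern of 33.6% of all genes tested.

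The knockdown effect was also compared between HES2 and H9 with an interaction term. By limma 0 of the 10 passed, as did 0% of all genes tested. An unadjusted p under 0.05 was found for 0 of the 10 and for 788 of all 17768 genes tested. edgeR and DESeq2 called 0 of the 10 as well. GAS5 had the most negative difference, at -0.46 with SE 0.28 (limma adjusted p = 1.00), from log2 differences of -0.73 and -0.69 in HES2 and of -0.26 and -0.23 in H9. With 2 knockdown libraries and 1 shLuc library per line, the SE of this term was 0.28 to 0.73 over the 10 genes, so a difference of the size seen for GAS5 was not detectable.

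Between the lines themselves, HES2 was compared against H9 with the arm as a block. H9 is replicate 1 and HES2 replicate 2 throughout, so line and replicate cannot be told apart. By limma 0 of the 10 were called, against 5.42% of all genes tested. An unadjusted p under 0.05 was found for 3 of the 10 and for 3741 of all 17768 genes tested. edgeR and DESeq2 likewise called 0 of the 10. SNHG15 was 0.72 higher in HES2 on the log2 scale with SE 0.18 (limma adjusted p = 0.0641), at 21.9, 32.0 and 49.4 CPM in HES2 with shDDX18#1, shDDX18#3 and shLuc, against 9.80, 23.3 and 31.6 CPM in H9. SNHG7, at 0.36 with SE 0.14, and SNHG5, at 0.35 with SE 0.11, were the others with a low unadjusted p. The remaining 7 lay between -0.40 and 0.11.

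Per kilobase of exon, which allows genes to be compared, SNHG1 led in shLuc cells with 62.0 ± 4.26 CPM per kb (SD, n = 2). SNHG5 at 47.3, SNHG8 at 46.9, GAS5 at 46.6 and SNHG6 at 46.0 CPM per kb followed and could not be ordered beyond their spread. SNHG3 at 20.4, SNHG7 at 13.1, SNHG15 at 11.1, SNHG12 at 7.03 and SNHG4 at 5.27 CPM per kb came after them, of which SNHG7 and SNHG15 overlapped. In knockdown cells SNHG8 at 34.1 ± 6.88, GAS5 at 33.7 ± 5.39 and SNHG1 at 30.5 ± 5.44 CPM per kb (SD, n = 4) lay within 1 SD of each other. With the longest transcript as the length, SNHG5 came first and 3 of the 10 genes kept their rank, so the order among the leading genes depends on the annotation.

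Several members overlap other genes, and whether the counting used strand is not given in the sources used here, so reads in the shared part cannot be assigned with certainty. SNHG4 is overlapped on its own strand by 1 of 2 identifiers of MATR3 (ENSG00000280987), a gene for a nuclear matrix protein. That identifier held 0.817, 0.973, 0.644 and 1.11 CPM in H9 shDDX18#1, H9 shDDX18#3, HES2 shDDX18#1 and HES2 shDDX18#3, against 5.26 CPM in H9 shLuc and 4.47 CPM in HES2 shLuc, a log2 fold change of -1.64 (limma adjusted p = 0.0151). These values rest on 2 to 4 reads in knockdown libraries and 19 and 20 reads in shLuc libraries, and the log2 fold change ran from -2.42 with DESeq2 to -0.86 with a pseudocount of 4. The other MATR3 identifier (ENSG00000015479) does not overlap SNHG4 and was at 2.57 to 4.21 CPM in knockdown libraries and 3.58 and 3.88 CPM in shLuc libraries, with a log2 fold change of -0.06 (limma adjusted p = 0.917). SIL1, a co-chaperone of the endoplasmic reticulum on the opposite strand across SNHG4, rose by a log2 fold change of 1.00 (limma adjusted p = 0.0425), and its call was lost in 9 of 18 alternatives.

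SNHG3 lies within RCC1, the exchange factor of the GTPase Ran, on the same strand. RCC1 was at 41.2 and 59.6 CPM in H9 shDDX18#1 and shDDX18#3 and at 60.2 and 79.9 CPM in the HES2 arms, against 146 CPM in H9 shLuc and 131 CPM in HES2 shLuc. It fell with SNHG3, with a log2 fold change of -1.22 (limma adjusted p = 0.0129). SNHG1 starts 188 bases from SLC3A2, which is transcribed the other way and makes the heavy chain of amino acid transporters. SLC3A2 had 768 and 425 CPM in H9 shDDX18#1 and shDDX18#3 and 669 and 374 CPM in the HES2 arms, against 400 CPM in H9 shLuc and 310 CPM in HES2 shLuc, a log2 fold change of 0.60 that did not pass (limma adjusted p = 0.186). With shDDX18#1 alone SLC3A2 was higher by 1.02 with SE 0.13 (limma adjusted p = 0.00113), and with shDDX18#3 alone its value was 0.18 (limma adjusted p = 0.424). The difference between the hairpins, 0.84 with SE 0.13, did not pass (limma adjusted p = 0.0824). The remaining neighbours had negative log2 fold changes and none passed: DIPK1B beside SNHG7 at -0.77 (limma adjusted p = 0.0658), GAS5-AS1 at -0.58, MCMDC2 beside SNHG6 at -0.48, TRNAU1AP beside SNHG12 at -0.37 and ZBTB37 beside GAS5 at -0.14.

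**Figure D4:**
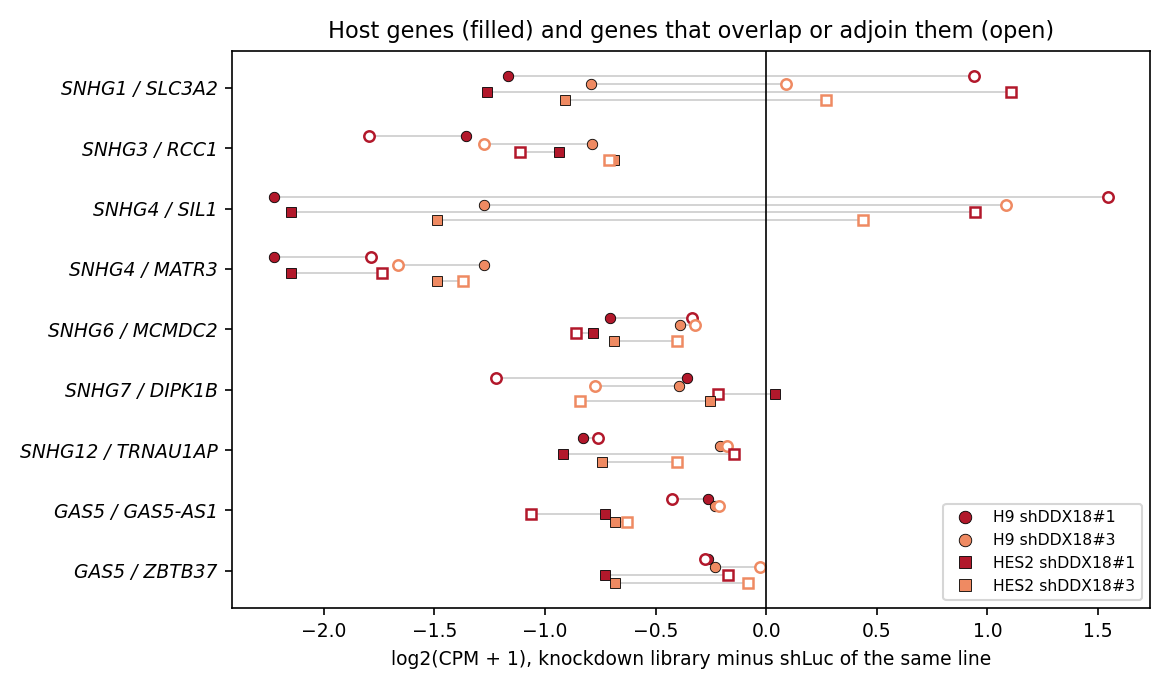
Knockdown minus same-line shLuc on the log2(CPM + 1) scale (horizontal axis) for host genes (filled) and a gene that overlaps or adjoins each (open), 1 grey line per knockdown library. SLC3A2 and SIL1 lie right of 0 in all 4 libraries while SNHG1 and SNHG4 lie left of it, and RCC1 and the overlapping MATR3 identifier lie left of 0 with their host genes.

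Other snoRNA hosts were read beside the 10 and beside all genes tested, of which 6.26% were called lower and 9.6% higher. Of 27 further noncoding host genes, 16 were in the table, 2 were called lower and 0 higher, and the median log2 fold change was -0.46. DANCR was at 49.8 and 75.2 CPM in H9 shDDX18#1 and shDDX18#3 and at 54.4 and 62.9 CPM in the HES2 arms, against 110 CPM in H9 shLuc and 90.8 CPM in HES2 shLuc, a log2 fold change of -0.73 (limma adjusted p = 0.0397). SNHG26 was the second, at -1.07 (limma adjusted p = 0.0498), with 7 to 11 reads in knockdown libraries and 28 and 29 reads in shLuc libraries. SNHG14, at -0.94 (limma adjusted p = 0.0545), and SNHG29, at -0.51 (limma adjusted p = 0.0560), did not pass, and SNHG18 had a positive value of 0.82 (limma adjusted p = 0.152).

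Protein-coding hosts were read in the same way. Of 23 ribosomal protein genes that host snoRNAs, 15 were called lower and 0 higher, with a median of -0.65. RPL3, of the large subunit, had a log2 fold change of -1.13 (limma adjusted p = 0.0191), and RPS3, of the small subunit, -0.91 (limma adjusted p = 0.0189). RPL12, of the large subunit, passed as well, at -1.01. Of 28 other protein-coding hosts 8 were called lower and 0 higher, with a median of -0.50. They include RCC1, MYBBP1A, a nucleolar regulator of transcription, at -0.69 (limma adjusted p = 0.0233), and NOP56, at -0.89 (limma adjusted p = 0.0260). All 23 and all 28 had a negative log2 fold change.

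The proteins that bind the snoRNAs were examined by class, again beside the 6.26% of all genes tested that were called lower. Of 13 box C/D particle proteins and assembly factors 6 were called lower and 0 higher, with a median of -0.54. FBL, the methyltransferase fibrillarin, was at -0.98 (limma adjusted p = 0.0207), the core protein NOP58 at -0.94 (limma adjusted p = 0.0262), and the assembly factor PIH1D1 at -0.70 (limma adjusted p = 0.0285). Of 6 box H/ACA proteins and assembly factors 2 were called lower and 0 higher, with a median of -0.53. DKC1, the pseudouridine synthase dyskerin, was at -0.85 (limma adjusted p = 0.0245) and the core protein NHP2 at -0.67 (limma adjusted p = 0.0402). GAR1 was at -0.84 (limma adjusted p = 0.155) and NAF1 at -0.39 (limma adjusted p = 0.172). edgeR and DESeq2 also called 0 genes higher in the host and particle lists. By limma 1 box C/D factor had a positive value with an unadjusted p under 0.05, as did 3101 of all 17768 genes tested.

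Factors that act on host RNA after splicing gave no call. For scale, 2781 of all 17768 genes tested had a negative value with an unadjusted p under 0.05 by limma. Among 14 nonsense-mediated decay factors 0 were called in either direction by limma, edgeR or DESeq2, 3 had an unadjusted p under 0.05 by limma, all negative, and the median was -0.18. EIF4A3, of the exon junction complex, had the smallest adjusted p of the list, at -0.48 (limma adjusted p = 0.0868). Among 5 genes of lariat debranching and exonuclease trimming 0 were called by limma, edgeR or DESeq2, 1 had an unadjusted p under 0.05 by limma, and the median was -0.21. They include DBR1, the debranching enzyme, at -0.39 (limma adjusted p = 0.245) and XRN1 at 0.34 (limma adjusted p = 0.347). Neither was the gene with an unadjusted p under 0.05, which had a negative value.

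**Figure D5:**
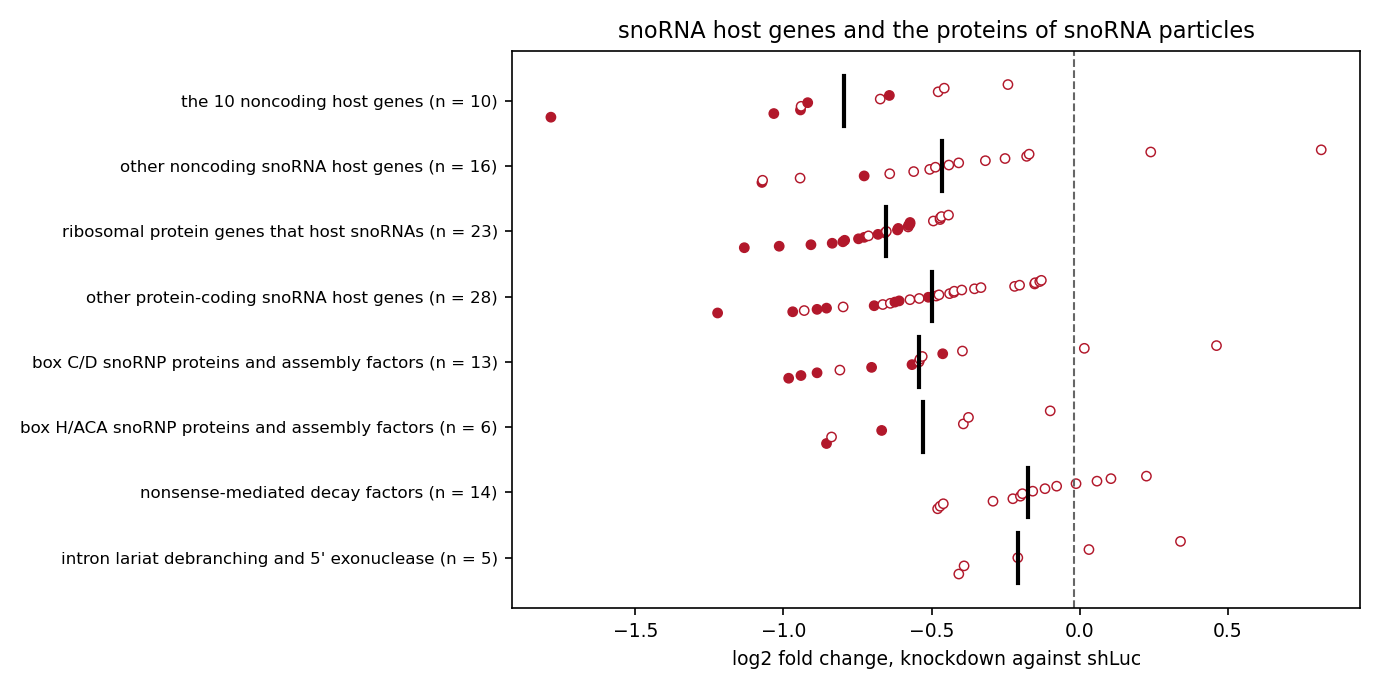
Log2 fold change in the knockdown against shLuc (horizontal axis) of every tested gene of the snoRNA host, particle and decay lists, filled where the limma adjusted p is under 0.05, with a bar at each list's median and a dashed line at the median of all genes tested (-0.02). The 10 noncoding hosts have the lowest median, -0.80, and the decay and debranching lists hold no filled point.

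The genes whose 4 differences from shLuc came closest to the median of the 10 were RPS2, PGAM1, RPL5, CYCS and IDH2, of 13232 candidates with a mean of at least 3 CPM. Their root mean square distances over the 4 knockdown libraries were 0.0520 for RPS2, 0.0545 for PGAM1, 0.0616 for RPL5, 0.0629 for CYCS and 0.0647 for IDH2, on the log2 scale. RPS2, a ribosomal protein of the small subunit, had differences of -0.89 and -0.39 in H9 shDDX18#1 and shDDX18#3 and of -0.94 and -0.63 in the HES2 arms.

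The authors' deposited table gives a negative log2 fold change for all 10 host genes. Its false discovery rate was under 0.05 for 6 of them. The share of all genes under that limit was not counted here, so the 6 have no background to be read against. In the authors' deposited table SNHG4 has a log2 fold change of -1.86 and a false discovery rate of 5.99e-06, and SNHG1 one of -1.03 with 4.05e-05. The authors' deposited table also passes SNHG15, with a log2 fold change of -0.89 and a false discovery rate of 0.0218, which limma did not call here.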

How the data were processed

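RNA was sequenced after library preparation with a TruSeq RNA kit, per the labels. The submitters' processing notes name hg19 as the build and, with no role for any tool, HTSeq 0.11.2, edgeR 3.26.8, SAMtools 1.9 and Bowtie2 2.3.4.3. The authors deposited a table that lists a normalized signal for each library. For the knockdown the authors deposited log2 fold changes, log2 mean abundances, a likelihood ratio score, p-values and false discovery rates, of which the score and the abundances were left unused. Dividing each signal value by the worth of 1 read in its library gave whole reads for 100% of values, to within 0.001.

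The fit was limma 3.58.1 (R 4.3.3) on log2(CPM + 1), with a prior variance that follows the mean level (a trend). A gene was tested if 2 or more libraries held 1 CPM or more, and Benjamini-Hochberg adjustment ran over all 17768 tested genes, with calls at an adjusted p under 0.05. Cell line was a block, because same-numbered libraries are the same line in the labels. Line differences in different arms correlated across genes at r = 0.654, 0.363 and 0.454. All arms share 1 estimate of spread. As alternatives, the pseudocount was 0.25 or 4, the filter was dropped or set at 5 CPM, 3 other scalings were used, the trend or the block was left out, the prior was robust, edgeR 4.0.16 and DESeq2 1.42.0 were run on recovered reads, and each library was left out. Exons, overlaps and snoRNA sequences came from GENCODE on GRCh38. The snoRNAs within each gene came from RefSeq, and promoters from RefSeq on GRCh38.p14. Named genes are the members, DDX18, overlapping or adjoining genes, up to 4 of each list with the smallest p, and the 5 closest patterns, and SNHG18 was added after its value was seen. The value of 1 gene that this rule names is not reported here. The members and lists were chosen with earlier results of these data known.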

Additional observations from a re-analysis of the deposited data

Results flagged for a closer look

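Of 20 genes examined for a library standing apart among the 4 knockdown libraries, 1 did so: MCMDC2, which overlaps SNHG6 on the opposite strand. It was at 8.04 CPM in HES2 shDDX18#1, while the other knockdown libraries held 11.4 to 12.0 CPM, and its gap to the nearest was 0.854 of the range, above Dixon's 95% critical value for 4 samples. Chance gives such a value in about 1 of 20 groups. SNHG6 itself was at 35.7 CPM in that library, within the range of the other knockdown libraries.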

How the results depend on the processing

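The count of the 10 host genes called lower in the knockdown, 5, stayed at 4 to 5 under the pseudocounts, filters, scalings, robust prior, edgeR and DESeq2, and every log2 fold change of the 10 in the knockdown comparison stayed negative. It was 2 without the trend. The same host genes numbered 0 to 7 when each library was left out. Genes called lower over the whole table, 1113, were 342 without the trend and 7 to 1604 with a library left out. With shDDX18#1 the count of 8 was 5 without the trend and 5 with DESeq2, and 5 to 8 with a library left out; all genes called lower, 2387, were 1194, 1146 and 1025 to 2115 under these. With shDDX18#3 the count of 4 was 0 without the trend, 1 with DESeq2, and 0 to 4 with a library left out; all genes called lower, 655, were 31, 319 and 0 to 843. Between hairpins and between lines, 0 to 1 of the 10 were called with a library left out, and the 963 genes that differed between lines were 184 without the trend and 95 to 2154 with a library left out. With the longest transcript as length, 3 of 10 kept their rank. The log2 fold change of SNHG7 with shDDX18#1 lay between -0.3236 and 0.0056 with a library left out, and was positive without H9 shDDX18#1. The cause was not tested.

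Without the replicate block, that is without pairing libraries by line, 3 of the 10 were called lower in the knockdown, 5 with shDDX18#1 and 0 with shDDX18#3, and all genes called lower numbered 409, 1003 and 2. The interaction could not be fitted without either shLuc library. A lone library left in an arm is assumed to vary like the others. Depth limits SNHG4, with 12 reads in each shDDX18#1 library.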
